A study of Mus musculus with 2 samples.

Results

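The 7 genes described here are 6 receptors for the growth factors of myeloid cells (Csf1r, Csf2ra, Csf2rb, Csf3r, Flt3 and Kit) and the ligand Csf1, chosen by name out of 16819 gene symbols. They were measured in immune cells of the dorsal root ganglia (DRG), which house the sensory neurons of the body. CD45+ DAPI- cells (living cells with the surface protein of leukocytes) were sorted from naive BALB/cAnNRj mice after enzymatic digestion of about 40 pooled ganglia a preparation, tagged with 1 hashtag antibody per animal, and run in 1 lane of a 3′ single-cell assay. The deposited matrix held raw counts of unique molecular identifiers (UMIs, each standing for 1 captured RNA molecule), and by their hashtags its cells came from 3 male mice (481, 772 and 1415 cells). Another 1073 cells of 3 female mice were recovered from the larger deposited matrix and serve as a second set. No treatment or transgene was compared, all animals were wild type, and for their age the methods give only a lower limit that holds for all mice of the study. All 6 animals shared the lane, so lane and study cannot be told apart, while sex could be compared between animals.

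A receptor for a colony-stimulating factor tells a blood cell to survive, divide and mature, and each lineage is known for its own set. CSF1R, the receptor tyrosine kinase for CSF1 and IL-34, keeps tissue macrophages alive; the alpha chain encoded by Csf2ra pairs with the common beta chain encoded by Csf2rb to bind GM-CSF; and CSF3R binds G-CSF, the main factor of neutrophils. FLT3 serves dendritic cells and early progenitors, and KIT, the receptor for stem cell factor, is known from progenitors and mast cells.

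Cells were put into types by fixed gates on genes other than the members. Macrophages (C1qa, C1qb and C1qc at 0.5% of UMIs or more) made up 1476 cells, neutrophils (S100a8 and S100a9 at 5% or more) 555, B cells 162, T or NK cells 121, monocytes 102, cDC2 (type 2 conventional dendritic cells) 51 and cDC1 (type 1) 44. A further 43 cells carried the primary granule genes Elane, Mpo, Prtn3 and Ctsg, 5 were basophil or mast cells, 96 were in no gate and 13 in several. Markers that the gates did not use were highest in their own type for 8 of 8 macrophage, 7 of 7 neutrophil, 6 of 6 B and 6 of 6 T or NK genes, but for 3 of 6 monocyte, 4 of 6 cDC2 and 5 of 7 cDC1 genes. The gate on primary granule genes was fixed as granulocyte precursors, yet 0 of its 6 listed markers were highest there (Cebpe, Fcnb and Ms4a3 were highest in neutrophils), so these cells are named below by their gate only. Mice 1, 2 and 3 gave 4239463, 5656097 and 13508078 UMIs. The median cell held 8598.5 UMIs among macrophages, 6570 among neutrophils and 3412 among B cells. Levels below are CPM (a gene's UMIs relative to all UMIs of the sum of a mouse's cells of a type, on the usual per-million scale), as mean ± SD over the 3 male mice, and intervals on counts cover counting error only.

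Csf1r, at chromosome 18 from 61100598 to 61132149 on the plus strand (GRCm38), was the receptor that most clearly followed the macrophages. Its level in them was 1092, 1098 and 1010 CPM in mice 1, 2 and 3 (1067 ± 49.0, n = 3), and 98.9% of the macrophages held at least 1 of its UMIs, with a median of 9 a cell. Monocytes stood next at 299, 289 and 299 CPM (296 ± 5.72). Below them cDC2 had 129, 94.6 and 119 CPM (114 ± 17.6). No male mouse value of these 3 types overlapped with that of its neighbour in the order, but in the female set monocytes (98.9 to 224.5 CPM) and cDC2 (116.6 to 166.7 CPM) did. Cells with primary granule genes followed at 75.8 ± 0.877 CPM (n = 2, since the 4 such cells of mouse 2 were too few to be summed). Macrophages held 94.8% of all Csf1r UMIs and 55.3% of the cells.

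At the low end of Csf1r, neutrophils (27.1 ± 11.6 CPM), cDC1 (21.5 ± 16.1), B cells (15.2 ± 6.27) and T or NK cells (9.15 ± 4.03) overlapped with their neighbours. Lymphocytes are not known to use CSF1R, and their values are given as the background; the part of free RNA in them was not tested. In all, 6.79% of B cells and 4.96% of T or NK cells held a Csf1r UMI. With each cell thinned to 2000 UMIs, the share was 3.95% in B cells, 2.54% in T or NK cells (median depth 4641 UMIs before thinning), 4.55% in cDC1, 7.63% in neutrophils, 11.8% in cDC2, 41.2% in monocytes and 86.0% in macrophages. The share in male cDC1 therefore lay near that of B cells, and 98 male cells under 2000 UMIs were left out of these shares. In the female set it did not, at 20.4 ± 8.04% in cDC1 against 4.23 ± 3.90% in B cells (means over 3 mice, 5 to 8 cDC1 a mouse). Female levels did not overlap either, at 22.0 to 49.6 CPM in cDC1 and 6.99 to 15.1 CPM in B cells.

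**Figure D1:**
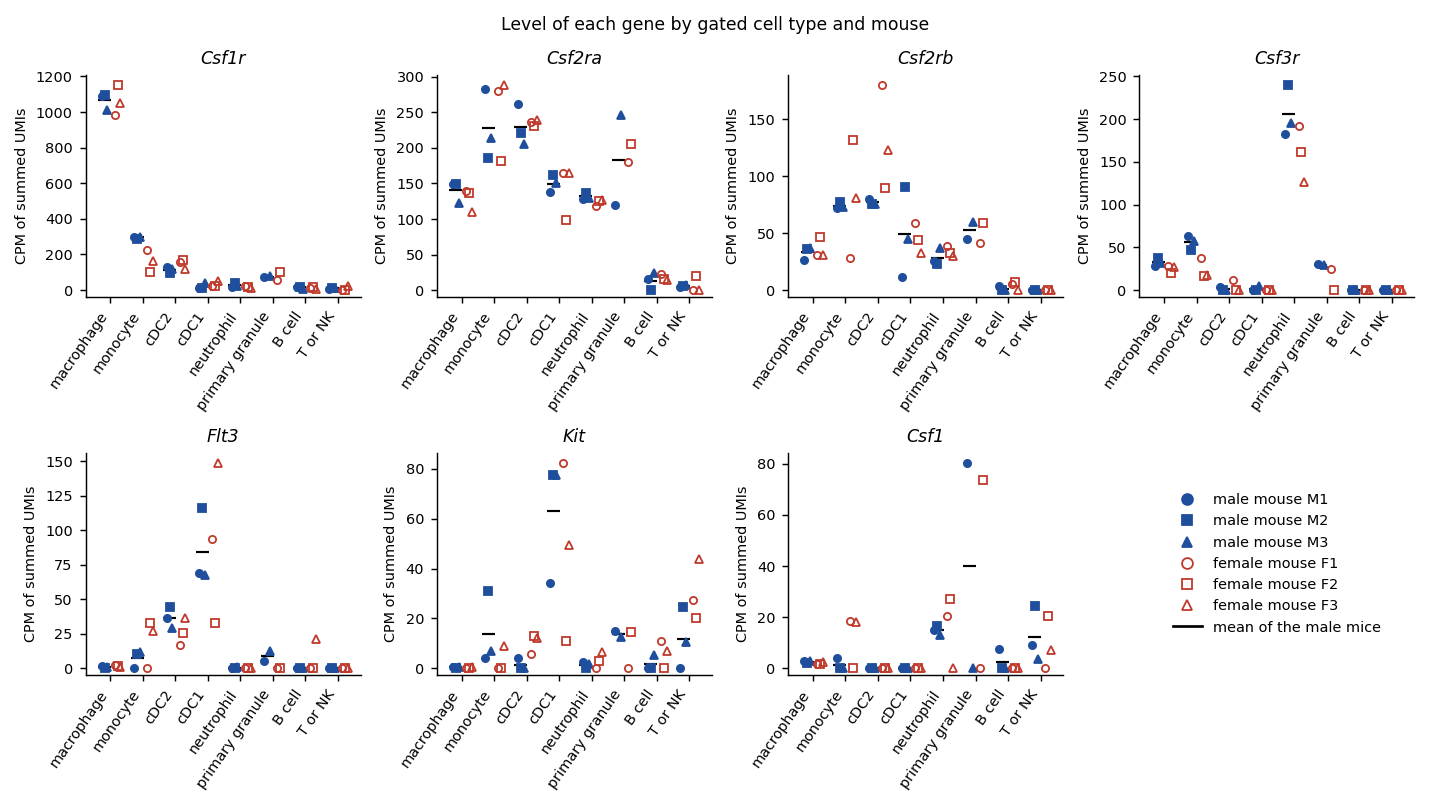
Level of each of the 7 genes in CPM, by gated cell type, with a filled point per male mouse, an open point per female mouse and a line at the mean of the male mice. Csf1r was highest in macrophages (1067 CPM), Csf3r in neutrophils (206 CPM), and Flt3 and Kit in cDC1 (84.3 and 63.2 CPM), by the means of the male mice over the types shown, which leave out the 5 basophil or mast cells.

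Both known ligands of CSF1R were rare in these CD45+ cells. Csf1 (chromosome 3, 107741048 to 107760469, minus strand) had 163 UMIs in 103 of the male cells, too few for the filter of the tests across types. Neutrophils held 67 of them, at 14.9, 16.7 and 13.1 CPM in the 3 mice (14.9 ± 1.79), against 3.02, 2.07 and 2.83 CPM in macrophages (2.64 ± 0.504). T or NK cells overlapped with neutrophils (12.4 ± 10.8 CPM, from 7 UMIs). The values of neutrophils and macrophages did not overlap, and the pooled ratio was 5.35 (95% interval 3.51 to 8.30). The top 5 of the 555 neutrophils held 43.3% of their Csf1 UMIs, an unevenness between cells that the interval does not cover. In the female set the ratio was 8.42 (3.55 to 21.4), though 1 female mouse had no Csf1 UMI in its neutrophils. The 39 neutrophils with a Csf1 UMI were shallow, with a median of 2883 UMIs against 7071 in the others. Of these 39 cells 37 also held a Csf3r UMI, as did 360 of the 516 other neutrophils. No cDC2 or cDC1 held a Csf1 UMI, which allows up to 4.39 and 4.68 CPM.

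Csf1 was uneven within types. Cells with primary granule genes had 16 UMIs in mouse 1 (80.2 CPM), 1 in mouse 2 and 0 in mouse 3. These were in 3 cells in all, of which 1 held 15. Macrophages with Fcrls but no Ccr2 UMI had 0, 5 and 12 Csf1 UMIs in the 3 mice (2.09 ± 1.90 CPM), those with both genes 5, 3 and 10 (4.01 ± 2.76 CPM), and those with Ccr2 but no Fcrls 0, which allows up to 2.35 CPM over all 3 mice. These levels overlapped or lay near that limit, so no difference was detectable at this depth. The 96 cells in no gate had 30 Csf1 UMIs (45.4 ± 23.3 CPM, from 18.6 to 61.0), above every value of the male neutrophils. Of these UMIs 13 were in 18 cells with at least 3 UMIs of the fibroblast genes Dcn, Lum, Col1a2 and Col3a1. That threshold was chosen after the values were seen. Each of these 18 cells also passed the same threshold for glial genes. The same 18 cells held 23 of the 32 UMIs of Il34, which encodes the other ligand of CSF1R, and macrophages held 5.

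Csf2ra (chromosome 19, 61223957 to 61228429, minus strand) was spread over the 6 myeloid types that were summed by mouse. The 5 basophil or mast cells held 0 of its UMIs. Csf2ra stood at 261, 221 and 206 CPM in cDC2 (229 ± 28.7) and at 283, 186 and 215 CPM in monocytes (228 ± 49.9). Cells with primary granule genes had 183 ± 88.8 CPM (n = 2), cDC1 150 ± 12.0, macrophages 141 ± 15.2 and neutrophils 132 ± 4.31. From cDC2 down to neutrophils each type overlapped with the next, and all 6 lay above B cells (13.1 ± 12.1) and T or NK cells (5.93 ± 1.26). At 2000 UMIs a cell, 24.3% of macrophages and 22.9% of neutrophils held a Csf2ra UMI against 1.97% of B cells and 0% of T or NK cells.

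The beta chain gene Csf2rb (chromosome 15, 78325752 to 78353847, plus strand) kept nearly the same order. It had 80.4, 75.6 and 75.9 CPM in cDC2 (77.3 ± 2.68) and 71.8, 77.5 and 72.7 CPM in monocytes (74.0 ± 3.07), which overlapped. Macrophages (26.6, 36.4 and 36.7 CPM) and neutrophils (25.7, 22.8 and 37.0 CPM) lay below both types in every male mouse and overlapped with each other. In cDC1 the mice were far apart (11.5, 90.5 and 45.1 CPM, from 1, 14 and 18 UMIs). B cells held 1 Csf2rb UMI and T or NK cells 0, which allows up to 4.52 CPM. Both chains were seen together in 24 of 51 cDC2 (47.1%), 39 of 102 monocytes (38.2%), 251 of 1476 macrophages (17.0%) and 69 of 555 neutrophils (12.4%), counts that also follow the depth of the cells. In the female set Csf2rb in cDC2 reached 131 ± 45.9 CPM. Female monocytes ranged from 28.1 to 131.8 CPM and overlapped with macrophages (30.6 to 46.4 CPM) and neutrophils (29.9 to 38.4 CPM).

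Csf2rb has a near copy, Csf2rb2, its neighbour on the minus strand of chromosome 15 (78282507 to 78305721), which encodes a beta chain for IL-3. Of the 31-base words of the Csf2rb transcript 28.0% occur in Csf2rb2, but 1.28% of those in its last 500 bases, the end that a 3′ assay reads. Some exchange of reads between both genes is therefore possible and was not measured. Csf2rb2 itself was at 19.9 ± 5.38 CPM in cDC2 and 7.15 ± 2.57 in macrophages. Csf2, the gene of GM-CSF, was mostly in T or NK cells, with 103 of 168 UMIs in 18 cells, of which the top 5 held 74.8%; per mouse their level was 0, 189 and 255 CPM.

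Csf3r (chromosome 4, 126024550 to 126044440, plus strand) marked the neutrophils. They had 183, 240 and 196 CPM (206 ± 30.1), well above the 63.8, 46.5 and 57.1 CPM of monocytes (55.8 ± 8.73). Macrophages stood at 28.4, 37.0 and 32.0 CPM (32.5 ± 4.30), below every monocyte value of the male mice. In the female set macrophages (25.2 ± 4.44 CPM) did not lie below monocytes (24.0 ± 11.7 CPM). The share of macrophages with a Csf3r UMI was 24.4%, and 6.36% at 2000 UMIs a cell, whereas B cells held 0 of 800266 UMIs (up to 3.75 CPM) and T or NK cells 0 of 663491 (up to 4.52 CPM). Of the 360 macrophages with a Csf3r UMI, 359 also held Csf1r. Only 16 of all 1476 macrophages held no Csf1r UMI, so this overlap does not set the cells with Csf3r apart. Dendritic cells were at the floor, with 1 UMI in cDC2 and 2 in cDC1.

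The level of Csf3r in neutrophils depended on how their cells were weighted. When each cell counted equally, at 2000 UMIs, the mean was 388 CPM, which means that the shallower cells held more Csf3r per UMI. In the female set the unthinned mean was 160 ± 32.8 CPM. Under each of these settings neutrophils kept the highest level of the types.

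Flt3 and Kit, both receptor tyrosine kinases and both on chromosome 5 (147330741 to 147400489, minus strand, and 75574916 to 75656722, plus strand), were highest in cDC1 among the types with at least 5 cells a sum. Flt3 had 68.8, 116 and 67.7 CPM there (84.3 ± 27.8), from 51 UMIs in 27 of 44 cells. In cDC2 it had 36.2, 44.1 and 28.9 CPM (36.4 ± 7.61), from 24 UMIs in 20 of 51 cells. All cDC1 values lay above all cDC2 values, and those of the remaining types were lower still, with 9 UMIs in monocytes, 13 in all 1476 macrophages and 0 in lymphocytes.

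Kit in cDC1 stood at 34.4, 77.5 and 77.7 CPM (mean 63.2), from 46 UMIs in 23 cells, and mouse 1 gave only 5 of the 44 cDC1 and 3 of these UMIs. Monocytes (14.0 ± 14.8 CPM, from 1, 6 and 4 UMIs in the 3 mice), cells with primary granule genes (13.7 ± 1.87 CPM, n = 2) and T or NK cells (11.7 ± 12.3 CPM, 7 UMIs) came next and overlapped. Against this, cDC2 and macrophages had 1 and 5 Kit UMIs. The 5 basophil or mast cells, too few to be summed by mouse, stood above cDC1, with 8 Kit UMIs in 3 cells (385 CPM pooled), and so did the 3 such female cells (17 UMIs, 2222 CPM). A further 10 cells in no gate held 23 Kit UMIs. Flt3 and Kit were seen in the same cell in 17 of the 44 cDC1 (38.6%), with Flt3 alone in 10, Kit alone in 6 and neither in 11.

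The female set, with 5 to 8 cDC1 a mouse, was more uneven for both genes. Flt3 had 94.0, 33.0 and 149 CPM in female cDC1 and 16.9, 25.6 and 36.8 CPM in female cDC2, and the second mouse, with 3 UMIs, lay within the range of cDC2. Female monocytes (0 to 33.0 CPM) and B cells (0 to 21.0 CPM, from 3 UMIs) also reached into that range. Kit had 82.3, 11.01 and 49.6 CPM in female cDC1. The second mouse, with 1 Kit UMI, again lay within the range of cDC2 (5.64 to 12.8 CPM) and below all 3 values of female T or NK cells (20.4 to 43.8 CPM).

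The stretches before the starts of Flt3 and Kit are shown because the pair was highest in the same one of the summed types. They are RefSeq sequences of GRCm38.p6, read 5′ to 3′ on the strand of the gene, and 5 of the 7 members had such a sequence. Flt3 lies at chr5:147400490-147400739 on the minus strand, and Kit at chr5:75574737-75574915 on the plus strand, cut at the first annotated transcript start. Capitals mark letters that match 1 of 5 motifs, searched on both strands in the 250 bases before the RefSeq start.
Flt3: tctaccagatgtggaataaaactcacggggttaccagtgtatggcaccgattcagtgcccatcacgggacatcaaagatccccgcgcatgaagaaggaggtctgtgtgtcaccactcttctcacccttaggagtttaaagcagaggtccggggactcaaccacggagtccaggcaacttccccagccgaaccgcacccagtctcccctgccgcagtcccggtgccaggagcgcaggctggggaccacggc
Kit: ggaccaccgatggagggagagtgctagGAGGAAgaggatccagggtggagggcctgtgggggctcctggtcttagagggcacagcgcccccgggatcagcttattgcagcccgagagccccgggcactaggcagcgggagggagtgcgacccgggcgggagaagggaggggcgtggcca
Kit had 2 RefSeq promoter sequences, and only the first listed is described. The only match in the windows of Flt3 and Kit was the PU.1 core GAGGAA in Kit, 223 bases before the RefSeq start. That motif was found in 23.3% of 32851 promoters of the same length. The ETS-IRF composite (in 2.30% of promoters), TGANTCA (AP-1, 6.75%), TTGCNNAA (C/EBP, 9.56%) and AGATAA (the GATA motif, 9.99%) were not in either window. PU.1 is an ETS factor of myeloid cells, and no binding of it was measured here.

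The ligands of these receptors were also counted in the sorted cells. Kitl, the gene of stem cell factor, had 542 of its 572 UMIs in macrophages, at 52.5, 45.7 and 35.8 CPM (44.7 ± 8.44), in 403 cells. Of these cells 402 also held Csf1r, which only 16 of all 1476 macrophages lacked. Of the 18 Kitl UMIs in no gate, 14 were in 4 cells with at least 3 UMIs of endothelial genes. Flt3l, which encodes the FLT3 ligand, had 113 UMIs, 70 of them in macrophages. Macrophages made up 55.3% of the cells and held 13298538 of the 23403638 UMIs of the male cells, so this count lay near their share.

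**Figure D2:**
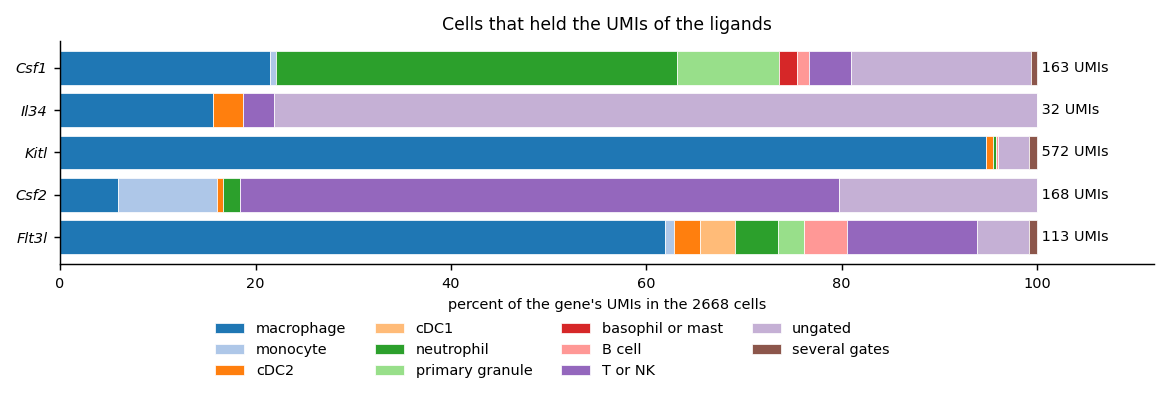
Share of the UMIs of each ligand gene, in percent of its UMIs in the male cells, held by each gated cell type. Macrophages held 94.8% of Kitl, T or NK cells 61.3% of Csf2, neutrophils 41.1% of Csf1 and cells in no gate 78.1% of Il34.

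The sums per mouse and type were then compared with edgeR's quasi-likelihood test after TMM scaling, in 1 fit over all types, with 6111 genes tested and a call at an adjusted p of 0.05. Of the 7 members 6 were tested, and Csf1 did not pass the filter on low counts. TMM moved the whole scale between unlike cells: without it the median log2 difference of all genes went from 0.06 to 0.73 between macrophages and neutrophils, from 0.02 to -0.25 against monocytes, from 0.04 to -0.12 against cDC2, from 0.01 to -0.53 against B cells, from 0.03 to 0.21 between the dendritic types and from 0 to -1.10 between neutrophils and cells with primary granule genes. Log2 differences below are on the TMM scale.

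Between macrophages and neutrophils, Csf1r was higher in macrophages and Csf3r in neutrophils by the widest margins among the members. Csf1r differed by 4.70 ± 0.22 on the log2 scale (SE, adjusted p = 4.20e-17, edgeR) and Csf3r by -3.29 ± 0.17 (adjusted p = 1.96e-14, edgeR). Of all genes tested 66.7% were called, 34.4% higher and 32.3% lower in macrophages (2100 and 1974 genes, or 3368 and 1131 without TMM). Against this background 4 of the 6 members were called, 1 higher and 3 lower in macrophages. Csf2ra was called lower (-0.56 ± 0.19, adjusted p = 0.0106, edgeR), but the sign turned without TMM (0.09, adjusted p = 0.669) and the call was lost without mouse 3 (-0.37, adjusted p = 0.178). Kit was called lower on 5 against 8 UMIs (pooled ratio of neutrophils to macrophages 4.47, interval 1.29 to 17.4), and not without mouse 1 (adjusted p = 0.0534) or mouse 3 (adjusted p = 0.289), nor without TMM (adjusted p = 0.0664). Csf2rb missed the call (-0.53 ± 0.24, adjusted p = 0.0543) and passed it with the mouse as a block (-0.55, adjusted p = 0.0406, edgeR), with RLE scaling (-0.54, adjusted p = 0.0464), with only both types in the fit (-0.55, adjusted p = 0.0283) or without mouse 2 (-0.74, adjusted p = 0.0232), while without TMM its sign turned (0.16).

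Between macrophages and monocytes, Csf1r was again higher in macrophages, and Csf2rb, Flt3 and Kit were higher in monocytes. The difference of Csf1r was 2.13 ± 0.19 (adjusted p = 3.34e-10, edgeR). Of all genes 29.5% were called, 14.7% higher and 14.8% lower in macrophages (897 and 903 genes, or 589 and 1505 without TMM), and 4 of the 6 members, 1 higher and 3 lower. Csf2rb differed by -0.83 ± 0.28 (adjusted p = 0.0239, edgeR). That call was lost without mouse 1 (adjusted p = 0.0743) or mouse 3 (adjusted p = 0.136) and in the female set (-0.66, adjusted p = 0.276). It was also lost with stricter gates (-0.73, adjusted p = 0.0636), under which the monocyte gate kept its limit and held 131 male cells. Kit differed by -4.23 ± 0.91 (adjusted p = 0.000528, edgeR) and Flt3 by -2.69 ± 0.79 (adjusted p = 0.0106, edgeR), on 11 and 9 monocyte UMIs. For each of both genes 97 of the 102 monocytes held no UMI. In the female set Kit had 1 UMI in macrophages and 1 in monocytes, too few to compare. For Flt3 the call was lost without mouse 2 (-2.40, adjusted p = 0.0703) or mouse 3 (-1.73, adjusted p = 0.535), and in the female set (-2.77, adjusted p = 0.0805). Csf2ra (-0.41, adjusted p = 0.137) and Csf3r (-0.51, adjusted p = 0.123) did not pass, but both did without TMM (-0.70 and -0.78, adjusted p = 0.00775 and 0.0142), and Csf2ra also with only both types in the fit (-0.49, adjusted p = 0.0337) and in the female set (-0.65, adjusted p = 0.0406).

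Against cDC2, macrophages had more Csf1r and Csf3r and less Flt3 and Csf2rb. Csf1r was higher by 3.37 ± 0.22 and Flt3 lower by 4.84 ± 0.62 on the log2 scale. Csf3r rested on 439 UMIs in macrophages and 1 in cDC2, a pooled ratio of 22.6 (interval 4.03 to 894), and its fitted difference of 4.53 became 8.35 without mouse 1, which held that 1 UMI. Of all genes 24.3% were called, 12.4% higher and 11.9% lower in macrophages (757 and 730 genes, or 590 and 993 without TMM), and 4 of the 6 members, 2 in each direction. Csf2rb (-1.02 ± 0.30, adjusted p = 0.0139, edgeR) lost its call without mouse 1 (adjusted p = 0.0846) or mouse 3 (adjusted p = 0.073). Csf2ra (-0.54, adjusted p = 0.0707) passed it without TMM (-0.71, adjusted p = 0.0121), with only both types in the fit (-0.61, adjusted p = 0.0131) and in the female set (-0.76, adjusted p = 0.00685).

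B cells served as a lineage outside this receptor set. Csf1r, Csf2ra, Csf2rb and Csf3r were all higher in macrophages, while 56.6% of all genes were called, 29.6% higher and 26.9% lower (1811 and 1646 genes, or 1245 and 2803 without TMM). Csf1r differed by 6.80 ± 0.29 and Csf2ra by 3.67 ± 0.34 on the log2 scale. Csf3r was at least 8.81-fold higher, since B cells had no UMI, and the pooled ratio of Csf2rb was 28.3 (interval 5.05 to 1120). The fitted difference of Csf2rb, 5.12, became 8.44 without mouse 1, which held the 1 B cell UMI, and that of Csf2ra 4.52 without mouse 3.

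The dendritic types differed in Csf1r and Kit. Csf1r was higher in cDC2 by 1.83 ± 0.36 (adjusted p = 0.000703, edgeR; 3.04 without mouse 3). Of the 19 Csf1r UMIs of the 44 cDC1, 12 were in 1 cell. Kit was higher in cDC1, on 46 against 1 UMI, with a fitted difference of -5.60 ± 1.02 (adjusted p = 0.000287, edgeR), and its call was lost without mouse 3 (-4.64, adjusted p = 0.122). Flt3 missed the call (-1.40 ± 0.51, adjusted p = 0.0861), though its pooled ratio of cDC1 to cDC2 was 2.27 (interval 1.37 to 3.85), and passed it when only the dendritic types were in the fit (-1.33, adjusted p = 0.0198). Of all genes 10.8% were called, 5.09% higher and 5.69% lower in cDC2 (311 and 348 genes, or 434 and 237 without TMM), against 2 of the 6 members, 1 in each direction.

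Neutrophils and the cells with primary granule genes differed in Csf3r, higher in neutrophils by 3.91 ± 0.29 on the log2 scale, from 944 and 20 UMIs. Of all genes 49.3% were called, 25.5% higher and 23.7% lower in neutrophils (1561 and 1451 genes, or 493 and 3432 without TMM), against 2 of the 6 members. Flt3, the second, was lower in neutrophils on 2 against 7 UMIs (pooled ratio 24.3, interval 4.64 to 240; adjusted p = 0.0192, edgeR). Without mouse 3 only the 13 cells with primary granule genes of mouse 1 were left, so that fit had no replicate of them and its calls are not read. Csf2ra (0.55, adjusted p = 0.0614; 1.14 without mouse 3) passed with RLE scaling (0.61, adjusted p = 0.0347) and with DESeq2 (0.62, adjusted p = 0.034), and without TMM it turned to -0.57 (adjusted p = 0.038). Csf2rb turned likewise, from 0.30 to -0.85 (adjusted p = 0.0339), and Csf1r (-1.57) and Kit (-2.91) passed as lower in neutrophils on that scale.

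**Figure D3:**
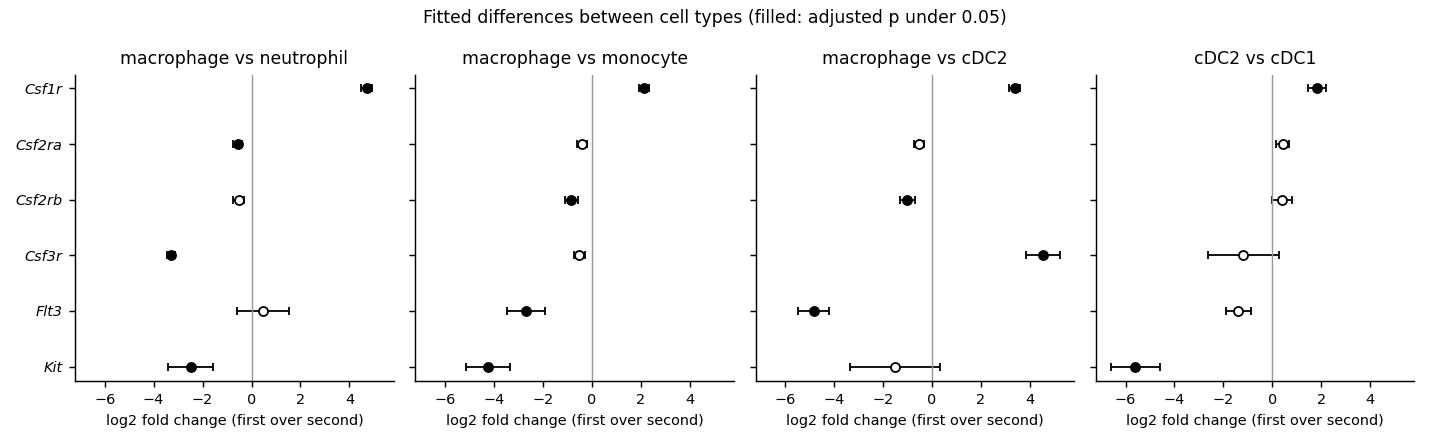
Log2 difference of each tested member in 4 of the comparisons between cell types (the first type over the second) on the TMM scale, with bars of 1 SE, filled where edgeR's adjusted p was under 0.05. Csf1r lay above 0 for macrophages against neutrophils (4.70), monocytes (2.13) and cDC2 (3.37), while Csf3r lay below 0 against neutrophils (-3.29) and above 0 against cDC2 (4.53).

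The wider pathway was followed in a list of 27 genes of ligands, partner chains and signalling, of which 26 were in the matrix (Il3 was not) and 19 were tested across types. Macrophages against neutrophils had 4 of these 19 higher and 10 lower, against monocytes 3 and 7, against cDC2 2 and 4, and against B cells 8 and 2. Without TMM the counts were 6 and 4, 2 and 12, 2 and 4, and 5 and 4. The median difference of the list was -0.57 against neutrophils, beside 0.06 for all genes, -0.53 against monocytes (0.02), 0.07 against cDC2 (0.04) and 0.80 against B cells (0.01). Without TMM the list's medians were 0.08, -0.81, -0.10 and 0.25. Kitl was higher in macrophages in these 4 comparisons (adjusted p = 3.21e-09 against neutrophils, edgeR). Socs3, a feedback inhibitor of cytokine receptors, was higher in macrophages than in neutrophils (3.71 ± 0.31 on the log2 scale) and monocytes (1.65 ± 0.29). Tyrobp, an adaptor that works with CSF1R, was lower in macrophages than in neutrophils (-0.75 ± 0.19). That difference is close in size to the shift of the median of all genes without TMM (from 0.06 to 0.73). Tyrobp was not called against monocytes (-0.31, adjusted p = 0.241, edgeR) or cDC2 (0.31, adjusted p = 0.285, edgeR), and was higher than in B cells (5.41 ± 0.27). Between the dendritic types 3 were higher in cDC2 and 0 lower (4 and 0 without TMM). In neutrophils against cells with primary granule genes 9 were higher and 2 lower, but 3 and 6 without TMM. Of all genes 25.5% and 23.7% were called in these directions with TMM. The list's median there went from 1.04 to -0.08 without TMM, and that of all genes from 0 to -1.10.

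The study divides macrophages of the DRG into a CD163+ and a CD163- population, which it tells apart by genes such as Fcrls and Ccr2. Here macrophages with at least 1 Fcrls UMI and no Ccr2 UMI (672 cells) were compared with those with Ccr2 and no Fcrls (156 cells), leaving out 581 with both and 67 with neither. Csf1r was at 1213, 1230 and 1142 CPM in the Fcrls-only cells (1195 ± 46.4) and at 1095, 838 and 787 CPM in the Ccr2-only cells (907 ± 165). The groups did not overlap, and the difference of 0.31 ± 0.13 did not pass (adjusted p = 0.189, edgeR). With the mouse as a block it did (0.32, adjusted p = 0.0307, edgeR), as it did without TMM (0.42, adjusted p = 0.0487) and with no filter on low counts (0.37, adjusted p = 0.0408).

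Csf2ra went the other way, with 130, 133 and 101 CPM in the Fcrls-only cells (121 ± 17.8) and 175, 155 and 186 CPM in the Ccr2-only cells (172 ± 16.0), again without overlap. It was the only 1 of the 4 members tested that was called (-0.64 ± 0.17, adjusted p = 0.0229, edgeR), where 9.37% of 5803 genes were, 4.02% higher and 5.36% lower in the Fcrls-only cells (233 and 311 genes, or 320 and 211 without TMM). With the mouse as a block 717 genes were called in place of 544. The call of Csf2ra was lost without mouse 1 (-0.69, adjusted p = 0.0803) or mouse 3 (-0.39, adjusted p = 0.319), without TMM (adjusted p = 0.062) and with DESeq2 (adjusted p = 0.0512). With every cell thinned to 2000 UMIs, and gated anew on its thinned Fcrls and Ccr2 counts, the sign turned (0.14, adjusted p = 0.861, edgeR). Left in their first groups, 23.5 ± 5.41% of the thinned Fcrls-only cells and 27.8 ± 3.91% of the Ccr2-only cells held a Csf2ra UMI (3 male mice). In the female set, unthinned, the log2 difference of Csf2ra was -0.75 (adjusted p = 0.0575, edgeR). Csf2rb (0.03 ± 0.29) and Csf3r (-0.44 ± 0.30) did not pass. Of 16 pathway genes tested 2 were lower in the Fcrls-only cells, Socs3 among them (-0.62 ± 0.15), and 0 higher, and with the block 4 were lower.

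Genes induced by tissue dissociation moved with this division. Fos, Jun, Atf3 and Rhob together made up 0.610 to 1.10% of UMIs in the Fcrls-only cells and 0.349 to 0.353% in the Ccr2-only cells. The 8 macrophage markers summed to 4.50 to 4.84% and 3.10 to 3.35%. The 6 monocyte markers summed to 0.0375 to 0.0436% and 0.0116 to 0.0167%, with Vcan at 0 in the latter. Of these 6 genes only 3 were highest in monocytes, and the list holds F13a1, which the study names as upregulated in CD163+ macrophages. This sum therefore does not rank the subsets by their likeness to monocytes. The part of these lists of genes in the differences of Csf1r and Csf2ra was not tested.

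**Figure D4:**
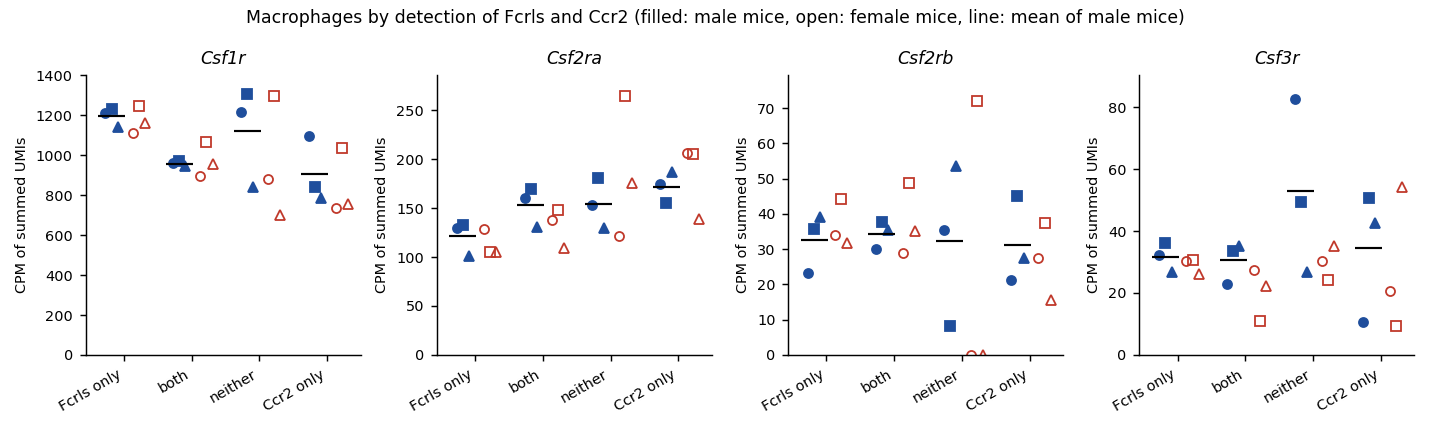
Level of Csf1r, Csf2ra, Csf2rb and Csf3r, in CPM, in macrophages with a UMI of Fcrls only, of both genes, of neither and of Ccr2 only, with a filled point per male mouse, an open point per female mouse and a line at the mean of the male mice. Csf1r was higher and Csf2ra lower in the Fcrls-only than in the Ccr2-only cells of each of the 3 male mice, and for Csf2rb and Csf3r these groups overlapped.

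The members did not differ by sex at the threshold. Between female and male macrophages 6 of 8102 genes were called (0.0741%) and 0 of 4 members, with Csf1r at 1062 ± 86.4 CPM in female and 1067 ± 49.0 in male mice (log2 difference 0.00 ± 0.09). At an unadjusted p under 0.05 there were 455 genes, and the smallest unadjusted p of a member was 0.0684, for Csf3r (-0.35 ± 0.18). In neutrophils 3 of 3636 genes were called (0.0825%; Xist, Eif2s3y and Ddx3y, on the sex chromosomes), 182 had an unadjusted p under 0.05, and 0 of 4 members were called.

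The differences between types were also set against each other in both sexes with an interaction term. For macrophages against monocytes it called 0.0177% of 5655 genes and 0 members, and 418 had an unadjusted p under 0.05. The member with the smallest p was Csf1r, whose margin over monocytes was wider by 0.89 ± 0.32 in females (unadjusted p = 0.00842, adjusted p = 0.458, edgeR), with 162 ± 62.8 CPM in 29 female monocytes. The percentage called was 0 for macrophages against neutrophils (170 with an unadjusted p under 0.05), against cDC2 (242) and against B cells (171), and 0 of 6283 genes between the Fcrls-only and Ccr2-only cells (263).

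The genes whose level most resembled a member's, by Pearson's r of log2(CPM + 10) over 22 sums of a mouse and type, are given as a description, since these sums share cell types and libraries. Those of Csf1r included Ctsb (r = 0.96), Adgre1, Fcgr1 and Ccl2, of which Adgre1 and Fcgr1 are macrophage markers. For Csf3r they were Prdx5 (0.96), Mtus1, Hcar2, Pgd and Adipor1. Csf2ra and Csf2rb shared Alox5ap and Plbd1 among their 5 (r of 0.92 to 0.96), the former needed for leukotriene synthesis. Flt3 was most like Ryr1 (0.96), Ifi205, Tnni2, Hepacam2 and Tspan33, and Kit like Ece1 (0.85), Gcsam, Ffar4, Ly6a and Snx22. Csf1 had no gene above 0.77 (Gclm).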

How the data were processed

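The authors deposited raw UMI counts of 1 gene expression library and of its hashtag library (Cell Ranger 3.1.0 per the file headers, mm10 per the labels): 4395 barcodes, and a smaller matrix of cells kept by their limits of 200 to 5000 genes and 5% mitochondrial UMIs. HTODemux (Seurat 5.3.0) on all barcodes followed by these filters returned exactly the cells of the smaller matrix, all with 1 of 3 male hashtags, and 1073 cells with a female one. Counts of both matrices differed in 0 entries. Of the 4111 barcodes that passed these filters 269 were removed as hashtag doublets. Scrublet marked 9 of those male cells, which were kept in the main results.

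Cells were gated on raw UMIs, and counts were summed per mouse and type (at least 5 cells a sum). Sums were tested with edgeR 4.0.16 (R 4.3.3; quasi-likelihood test, TMM, filterByExpr, Benjamini-Hochberg adjustment over all genes tested, threshold 0.05), leaving out the 29 gate genes, with DESeq2 1.42.0 as an alternative. The tests were tried on simulated data. A count of 0 is given with the CPM of 3 counts, and intervals are exact at 95%. Gene positions come from GENCODE M21 on GRCm38, looked up by Ensembl identifier.

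The main fits had no block. The sums of a mouse come from the same animal. Across the cell types, their deviations from the type means correlated at a median of 0.023 over 77 pairs, against -0.0146 over 154 pairs of sums of other mice. This correlation was not computed for the Fcrls-only and Ccr2-only sums, where the block raised the genes called from 544 to 717. Blocked values stand beside a result where they changed its call.

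The members, gates and lists were chosen with earlier results of these data known. Named genes are the 7 members, the 5 genes most like each in pattern, and, of the pathway list, those that are a ligand, partner or paralog of a member or are named as examples with their values seen; some genes are not reported here. Alternatives were RLE scaling, no filter, DESeq2, each mouse left out, the block, stricter gates, thinning, only the 2 types in the fit, Scrublet cells removed and the female set. Stricter gates raised the limits for macrophages, neutrophils, B cells and dendritic cells only. The monocyte gate then held 131 male cells in place of 102. For the macrophage subsets, thinned cells were gated anew on their thinned Fcrls and Ccr2 counts. Scaling without TMM was added after the data were seen.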

Additional observations from a re-analysis of the deposited data

How the results depend on the processing

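Of 626 log2 differences of members under an alternative, 560 kept their direction and their side of the threshold, 21 lost the call, 20 gained it and 25 turned sign. The 3 mice a group (2 for the cells with primary granule genes), the few cells in the dendritic and monocyte gates and the depth of Flt3, Kit and Csf1 (163 UMIs or fewer each) limit these results. The cause of each change below was not tested, except that leaving out a mouse or using the smaller female set leaves fewer cells.

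Counts of genes called moved by over 1.5 times in these cases. In the ranges over left-out mice this holds only for the mice named in brackets. Without the filter on low counts, 6757 genes were called between macrophages and neutrophils, 103 between female and male macrophages and 15 between female and male neutrophils. In the 3 female mice, 2368 were called between macrophages and neutrophils, 929 against monocytes, 914 against cDC2, 2140 against B cells, 396 between cDC2 and cDC1, 1569 between neutrophils and cells with primary granule genes and 273 between Fcrls-only and Ccr2-only macrophages, where thinning to 2000 UMIs left 155. Leaving out each mouse in turn gave 1107 (without mouse 3) to 1585 genes against monocytes, 933 (without mouse 3) to 1211 against cDC2, 267 (without mouse 3; 402 without mouse 2) to 498 between the dendritic types, 1434 (without mouse 3) to 2981 between neutrophils and cells with primary granule genes, and 257 (without mouse 2; 335 without mouse 3) to 370 between the macrophage subsets. For sex it gave 5 to 72 genes in macrophages (72 without male mouse 2) and 3 to 6 in neutrophils (6 without male mouse 3).

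Levels moved for Csf2ra in cDC2 (268 CPM thinned), Csf2rb in cDC2 (85.3 CPM thinned, 84.4 with stricter gates, 131 in females), Csf3r in neutrophils (388 CPM thinned, 160 in females), Flt3 in cDC1 (166 CPM thinned) and Csf1 in neutrophils (33.5 CPM thinned, 10.3 with stricter gates).

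The sign turned without TMM for Csf2ra (0.093) and Csf2rb (0.16) between macrophages and neutrophils, for Csf2ra (-0.57) and Csf2rb (-0.85) between neutrophils and cells with primary granule genes, and for Csf1r by sex in macrophages (-0.0065). Among Fcrls-only and Ccr2-only macrophages it turned for Csf2ra when the cells were thinned and gated anew (0.14). There it also turned for Csf2rb with DESeq2 (-0.032), without mouse 3 (-0.28, and 0.30 without mouse 2) and with at least 2 UMIs in the gate (-0.10). Between the dendritic types it turned for Csf3r without mouse 3 (3.57; -5.19 without mouse 1) and in females (3.45). By sex in macrophages it turned for Csf1r with no filter (-0.025), without male mouse 3 (-0.059; 0.034 without female mouse 1) or female mouse 2 (-0.055) and with stricter gates (-0.0011), for Csf2ra without female mouse 3 (0.0050; -0.23 without male mouse 3) and for Csf2rb without male mouse 1 (-0.015) or female mouse 2 (-0.13; 0.17 without female mouse 3). By sex in neutrophils it turned for Csf2ra without female mouse 1 (0.0090; -0.061 without female mouse 3) and with stricter gates (0.024). Of the rest, Flt3 turned against B cells in females (-1.29) and against neutrophils without mouse 1 (-0.18; 2.56 without mouse 3), Kit against B cells without mouse 3 (1.53; -2.53 without mouse 1) and against cDC2 without mouse 1 (2.07; -2.02 without mouse 3), and Csf3r against monocytes in females (0.37). The mouse as a replicate block changed 2 calls of members, those of Csf2rb between macrophages and neutrophils (-0.55) and of Csf1r between the macrophage subsets (0.32), and no other.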
